A study of Mus musculus with 2 samples.

Results

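Immediate early response genes are transcribed within minutes of a growth factor, a mechanical or a stress signal, without any new protein being needed first. The 10 genes described here, Fos, Fosb, Jun, Junb, Jund, Egr1, Ier2, Dusp1, Atf3 and Zfp36, were taken by symbol from the 32285 genes of the count matrices, and all 10 were found. They were followed in single-cell RNA-seq of whole mouse embryos at embryonic day 9.5, with 1 wild-type library and 1 library from Usb1-null embryos, which carry a Usb1 knockout in the germline. The gene encodes the exonuclease that shortens the oligo(U) tail of U6 snRNA, and the knockout allele, made by CRISPR/Cas9, lacks exons 1 and 2. How many embryos went into a library was not stated. With 1 library per genotype there is no replicate error and no test between genotypes: every interval below is a 95% interval for counting error only, and differences between embryos, litters or dissociations are not in it.

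The products of these genes fall into a few roles. Fos, FosB, c-Jun, JunB and JunD are subunits of the dimeric transcription factor AP-1, in which a Fos protein needs a Jun partner to bind DNA. Egr1 is a zinc finger transcription factor, Atf3 is a stress-induced relative of the AP-1 subunits, and Ier2 encodes a nuclear protein induced by the same signals. Dusp1, a phosphatase that switches off MAP kinases, and Zfp36, a protein that speeds the decay of AU-rich mRNAs, are feedback inhibitors of the response. Dissociating a tissue into single cells is itself known to induce many of these genes, so their level in such data need not be the level in the intact embryo. The share of their RNA induced during dissociation was not tested.

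Serum response factor, CREB and AP-1 itself are known regulators of the class, and the sequences upstream of the genes whose values carry the results are shown for that reason. Each line below gives the 250 bases before the RefSeq start (assembly GRCm38.p6, read along the gene's strand), with capitals for TGACG (the core of the CREB site, on either strand), the whole CREB site TGACGTCA, the AP-1 site TGANTCA, the CArG box of serum response factor and TATAAA. The positions are chr12:85473640-85473889 on the plus strand for Fos, and, on the minus strand, chr7:19310046-19310295 for Fosb, chr4:95052223-95052472 for Jun and chr17:26508473-26508722 for Dusp1.
Fos: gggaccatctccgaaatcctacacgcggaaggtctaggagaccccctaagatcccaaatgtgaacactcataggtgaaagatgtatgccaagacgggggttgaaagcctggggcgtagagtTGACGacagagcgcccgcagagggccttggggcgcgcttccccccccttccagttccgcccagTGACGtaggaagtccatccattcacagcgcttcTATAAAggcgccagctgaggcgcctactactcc
Fosb: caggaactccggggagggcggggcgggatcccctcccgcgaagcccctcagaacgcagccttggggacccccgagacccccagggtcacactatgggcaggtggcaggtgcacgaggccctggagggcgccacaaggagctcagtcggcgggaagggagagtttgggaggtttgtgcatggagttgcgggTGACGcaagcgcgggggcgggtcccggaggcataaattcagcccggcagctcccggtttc
Jun: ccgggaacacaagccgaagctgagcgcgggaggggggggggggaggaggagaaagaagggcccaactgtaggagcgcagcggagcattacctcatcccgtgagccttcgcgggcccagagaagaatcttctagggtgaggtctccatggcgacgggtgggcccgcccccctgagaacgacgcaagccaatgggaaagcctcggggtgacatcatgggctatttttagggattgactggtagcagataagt
Dusp1: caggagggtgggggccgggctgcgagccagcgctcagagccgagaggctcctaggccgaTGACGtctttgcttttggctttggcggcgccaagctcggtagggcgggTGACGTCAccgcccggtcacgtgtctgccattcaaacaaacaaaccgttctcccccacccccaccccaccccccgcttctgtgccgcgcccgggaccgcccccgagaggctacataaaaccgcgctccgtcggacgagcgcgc
Fos and Fosb each held TGACG close to the start, at positions -66 to -62 and -60 to -56, and Fos held another at -129 to -125 and TATAAA at -33 to -28. Dusp1 held the whole TGACGTCA at -143 to -136 and a further TGACG at -191 to -187. The stretch before Jun held none of the capitalised motifs. Only exact matches were marked, and this stretch holds tgacatca, which differs from TGACGTCA by a single letter. Windows of 300 bases (250 before the start and 50 after) were given for 8 of the 10 genes, and TGACG was found in those of Fos, Fosb, Junb, Dusp1 and Atf3. Over all 32851 windows, 20.8% held TGACG and 1.79% held TGACGTCA on either strand (a TGACGTCA contains TGACG), 7.81% held TGANTCA, 1.63% a CArG box and 13.6% TATAAA. A CArG box was found in the window of Zfp36, at -58 to -49, and TGANTCA in none of the 8. These matches describe letters and do not show binding, and sites outside the windows were not searched.

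The wild-type matrix held 15162 barcodes and 21751961 UMIs and the Usb1-null matrix 13034 barcodes and 33775852 UMIs. After the study's limits (200 to 6000 genes and under 30% mitochondrial UMIs) 15161 and 13018 cells were kept, with a median of 1243 and 2299.5 UMIs per cell. As the Usb1-null cells were deeper, shares of cells are given after thinning each cell to 800 UMIs, which left 12472 cells of the wild-type and 12714 of the Usb1-null library and dropped 2689 and 304. The libraries shared 61 barcodes. Xist had 53276 UMIs in the wild-type and 26 in the Usb1-null library, and 4 Y-linked genes had 14 and 23463, so sex and genotype cannot be told apart. Usb1 itself had 68 and 47 UMIs, but the assay reads 3′ ends and the deleted exons are at the other end of the gene, so that count does not check the labels. The median mitochondrial share was 0.309% in the wild-type and 0.104% in the Usb1-null library, and the labels name nuclear RNA although the protocol describes cells. Among cells outside the erythroid cluster, 20.3% of wild-type and 5.60% of Usb1-null cells held a UMI of the globin gene Hbb-y. This share does not compare free RNA like for like, as the erythroid cluster held 3.88% of wild-type and 1.40% of Usb1-null cells. The summed level of 9 mature hepatocyte markers went the other way. It was 0 CPM (defined below) in the wild-type and 30.4 in the Usb1-null cells of the cardiomyocyte-like cluster. In the endothelial-like cluster it was 1.40 and 35.7 CPM. The source of this RNA was not tested.

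Summed over all cells, the 10 genes together were at the same level in the libraries, but the mix differed. They took 152.9 of every 1000000 UMIs (counts per 1000000, CPM) in the wild-type library (3322 UMIs) and 154.8 CPM in the Usb1-null library (5168 UMIs), a ratio of 1.01 (0.969 to 1.06). Jun, Jund and Ier2 gave most of these UMIs, with 1162, 884 and 742 in the wild-type and 1339, 1594 and 1117 in the Usb1-null library. The summed level, here and by cluster, thus mainly follows these genes. Fos, Fosb and Dusp1 were higher in the Usb1-null library, Jun was lower, and Ier2 and Junb were nearly level. Of the 10, 5 lay at least 25% above the wild-type level in the Usb1-null library, where 21.1% of all 18921 genes with at least 20 UMIs did, and 1 had a ratio of at most 0.8, where 17.5% of all genes did. The median log2 ratio of (CPM + 1) was 0.26 for the 10 genes and 0.01 for all genes. With every gene at the lower or the upper end of its counting interval, the median of the 10 was -0.08 or 0.57, a range that includes the value for all genes.

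Among the AP-1 subunits, Fos stood at 3.64 CPM (2.88 to 4.53, from 79 UMIs) in the wild-type and at 5.72 (4.94 to 6.59, from 191 UMIs) in the Usb1-null library, a ratio of 1.57 (1.20 to 2.07). Fosb stood at 1.79 (39 UMIs) and 2.85 (95 UMIs), a ratio of 1.59 (1.08 to 2.37). Both Fos genes were thus higher in the Usb1-null library by more than counting error. Jun went the other way, from 53.5 CPM (50.4 to 56.6, from 1162 UMIs) to 40.1 (38.0 to 42.3, from 1339 UMIs), a ratio of 0.750 (0.693 to 0.812). Junb was at 5.57 and 5.87 CPM (121 and 196 UMIs), with a ratio of 1.05 (0.836 to 1.33). Jund was at 40.7 and 47.7 (884 and 1594 UMIs), with a ratio of 1.17 (1.08 to 1.28) that did not reach 25%. Jun and Jund, whose products can each partner Fos, thus differed in opposite directions.

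Egr1 was sparse, with 27 UMIs in the wild-type and 58 in the Usb1-null library (1.24 and 1.74 CPM), and the interval of its ratio, 1.40 (0.871 to 2.30), included 1. Atf3 was at 3.36 and 2.91 CPM (73 and 97 UMIs), with a ratio of 0.865 (0.632 to 1.19). Ier2 was at 34.1 and 33.5 CPM (742 and 1117 UMIs), with a ratio of 0.980 (0.892 to 1.08). None of these 3 regulators differed by more than counting error. Of the feedback inhibitors, Dusp1 went from 7.87 CPM (6.73 to 9.14, from 171 UMIs) to 12.7 (11.5 to 14.0, from 425 UMIs), a ratio of 1.62 (1.35 to 1.94) that exceeded that of 95.2% of all genes on the log2 scale above. Zfp36 was at 1.10 and 1.68 CPM (24 and 56 UMIs), and its ratio of 1.52 (0.926 to 2.56) had an interval that included 1.

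**Figure D1:**
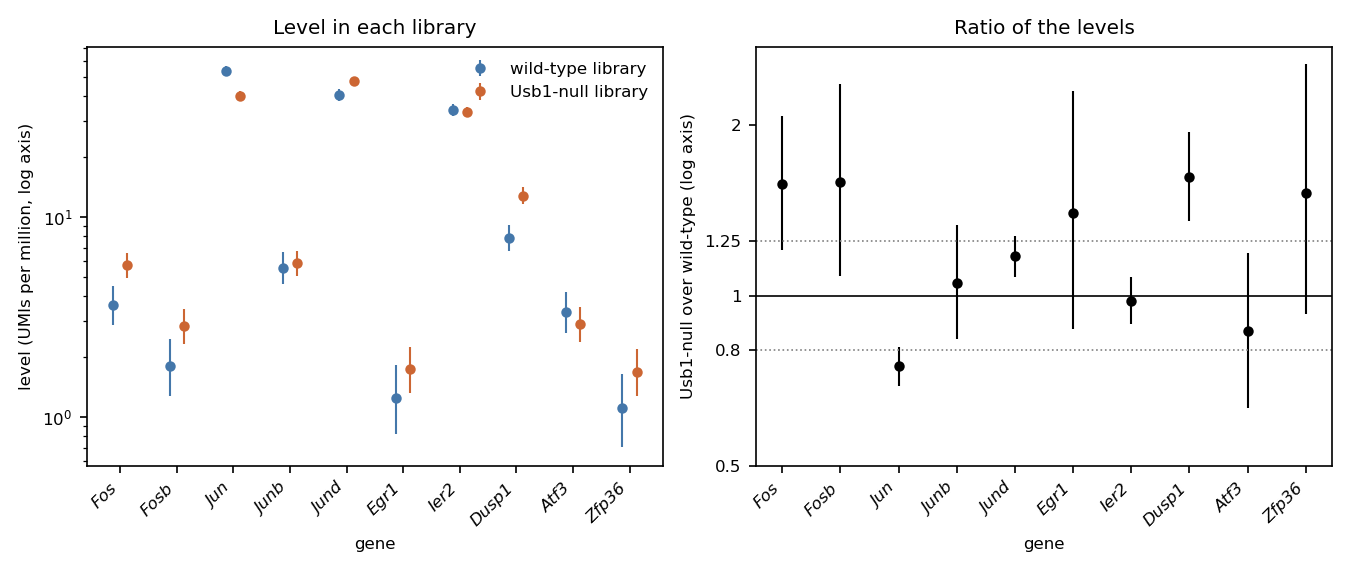
Left, level of each of the 10 genes (CPM, log axis) in the wild-type and the Usb1-null library, summed over all cells, with exact Poisson 95% intervals. Right, the Usb1-null over wild-type ratio (log axis) with its 95% interval, with a solid line at 1 and dotted lines at 25% above 1 and at 0.8. Dusp1, at 1.62, and Jun, at 0.750, lie farthest from 1 relative to their intervals, and the bars cover counting error only.

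Most of the genes are short. Jun, Jund and Ier2 have a single exon, and 8 of the 10 genes span 1522 to 7356 bases, against a median of 22195 over all genes tested. In the same gene models Dusp1 and Atf3 span 56539 and 47744 bases. The RefSeq start of Dusp1 used above lies inside its span (chr17:26505590-26562128), near the 3′ end, so its length class depends on the model. The 1634 protein-coding genes that span under 5000 bases had a median log2 ratio of -0.17, so short genes as a class were lower in the Usb1-null library, while the 372 protein-coding genes with 1 exon had a median of 0.02. Jun, at -0.41 on that scale, lay below both medians, and its part in the shift of short genes was not tested. Jun (chr4:95049034-95052222, minus strand, GRCm38) overlaps the antisense gene Junos, Jund the antisense gene Gm11175, Zfp36 the antisense gene Gm44710 and Junb the opposite-strand gene Prdx2. Dusp1 overlaps the opposite-strand gene Ergic1 and, on its own strand, AC122252.1, both counted as genes of their own. Counting by strand would separate the opposite-strand genes but not AC122252.1, so the Dusp1 count is uncertain either way. Whether the counting used strand was not stated.

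To follow the genes by cell type, the cells were clustered without them, and 21 clusters were found, of which 18 had 100 or more cells per library. Clusters were called X-like only where markers of that type led, and the others are given by number. The clearest pattern was that of Fos and Fosb, which were highest in the cardiomyocyte-like cluster in both libraries. All 11 cardiomyocyte markers were higher in that cluster than in the remaining cells of both libraries, with a summed level of 14589 against 277.9 CPM in the wild-type and 11511 against 147.4 in the Usb1-null library, and the 10 endothelial markers were each lower there than elsewhere in at least 1 library. The markers of splanchnic mesoderm, a list that holds the heart factors Gata4, Tbx18, Isl1 and Hand1, were also higher there, at 967.3 against 161.8 and 920.6 against 150.7 CPM, as were those of presomitic mesoderm and tail bud (132.1 against 85.9 and 165.5 against 85.0) and, by less, craniofacial mesenchyme (181.7 against 148.0 and 154.9 against 140.1). Their part in the Fos and Fosb levels was not tested.

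In the 496 wild-type cells of the cardiomyocyte-like cluster Fos stood at 35.0 CPM (31 UMIs), against 2.30 in all other wild-type cells, a ratio of 15.2 (9.35 to 24.4). In the 439 Usb1-null cells it stood at 46.0 (65 UMIs) against 3.94, a ratio of 11.7 (8.51 to 15.9). The cluster held 3.27% and 3.37% of the cells but 39.2% and 34.0% of the Fos UMIs. Fosb was at 18.1 CPM (16 UMIs) against 1.10 in the wild-type and at 23.3 (33 UMIs) against 1.94 in the Usb1-null library, ratios of 16.4 (8.08 to 32.4) and 12.03 (7.64 to 18.6). At 800 UMIs per cell, Fos was detected in 6 of the cluster's 443 wild-type cells (1.35%, Clopper-Pearson interval 0.499 to 2.92) and in 16 of 435 Usb1-null cells (3.68%, 2.12 to 5.90). In the neural tube progenitor-like cluster, at the same depth, it was found in 2 of 1495 wild-type cells (0.134%) and in 0 of 1654 Usb1-null cells, a count that allows a share of cells with a Fos UMI of up to 0.181% at 3 counts and up to 0.223% by the Clopper-Pearson interval. Most cells of the heart cluster thus had no Fos UMI at this depth. Of all genes with at least 20 UMIs in each library, 3.77% were highest in the cardiomyocyte-like cluster in both, and 2 of the 10 immediate early genes were.

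The cells next in order after the cardiomyocyte-like cluster had few UMIs. For Fos these were cluster 17 in the wild-type library (13.9 CPM, from 3 UMIs) and the primitive erythroid-like cluster in the Usb1-null library (13.7, from 5 UMIs). The ratio of the leading cluster to the next had an interval that included 1 in the wild-type library, at 2.52 (0.786 to 12.9), and not in the Usb1-null library, at 3.36 (1.37 to 10.7). In the surface ectoderm-like cluster, which had rank 3 for Fos in both libraries, the levels were 6.84 (13 UMIs) and 9.18 (27 UMIs) CPM. Neither Fos nor Fosb had a UMI in the neuron-like or the intermediate mesoderm-like cluster of either library, though these clusters held only 110 to 286 cells a library.

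Between the genotypes, Fos in the cardiomyocyte-like cluster differed by a ratio of 1.31 (0.844 to 2.08) and Fosb by 1.29 (0.691 to 2.51), both within counting error. Without that cluster the library ratio of Fos was 1.71 (1.22 to 2.44) and that of Fosb 1.76 (1.07 to 2.97), so the higher level in the Usb1-null library did not rest on the heart cells. Among the 4 clusters with at least 20 Fos UMIs the ratio was highest in the splanchnic mesoderm-like cluster, where Fos went from 2 wild-type UMIs to 19 Usb1-null UMIs (1.29 and 8.04 CPM), a ratio of 6.25 (1.51 to 55.4). This cluster reached 20 UMIs through its Usb1-null cells, so that a high ratio there follows in part from the minimum, and nothing is read from it.

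**Figure D2:**
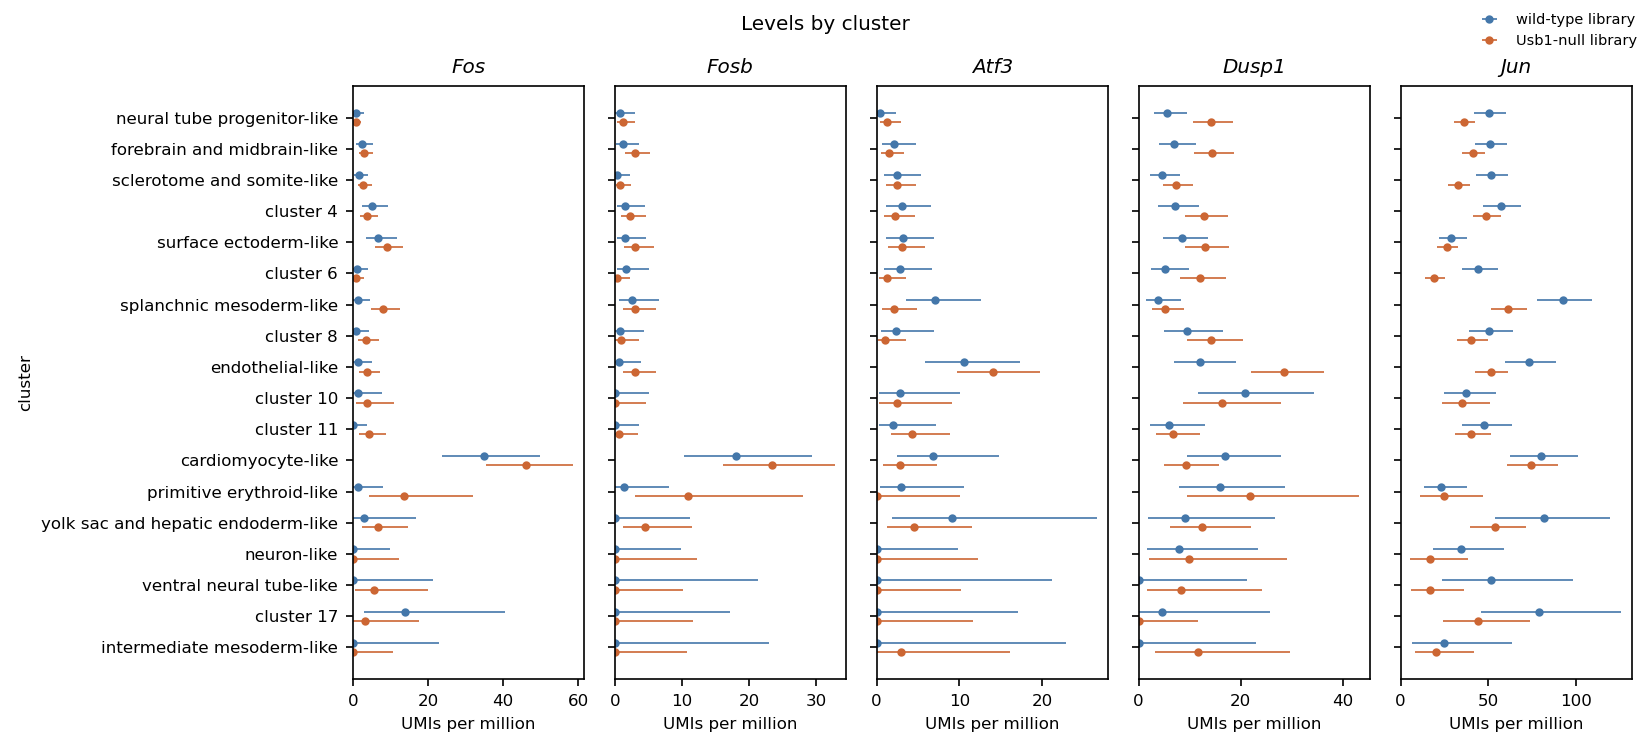
Level of Fos, Fosb, Atf3, Dusp1 and Jun (CPM, linear axes that differ between panels) in the 18 clusters of 100 or more cells per library, for the wild-type and the Usb1-null library, with exact Poisson 95% intervals for counting error. Fos and Fosb stand out in the cardiomyocyte-like cluster of both libraries, at 35.0 and 46.0 and at 18.1 and 23.3, and Atf3 is highest in the endothelial-like cluster, at 10.5 and 14.0.

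Jun was spread more evenly. It was highest in the splanchnic mesoderm-like cluster of the wild-type library, at 92.6 CPM (144 UMIs), and in the cardiomyocyte-like cluster of the Usb1-null library, at 74.2 (105 UMIs), in each case without a difference from the next cluster beyond counting error. It was lowest in the primitive erythroid-like cluster of the wild-type (23.3) and in the neuron-like cluster of the Usb1-null library (16.6, from 5 UMIs). Of the 15 clusters with at least 20 Jun UMIs, 14 had a lower level in the Usb1-null library, 8 had a ratio of at most 0.8 and 5 an interval below 1. The lowest ratio was in cluster 6, where Jun went from 44.3 CPM (77 UMIs) to 19.1 (48 UMIs), a ratio of 0.432 (0.295 to 0.627). Cluster 6 raised 8 of 10 craniofacial mesenchyme markers and 7 neural crest markers and was left unnamed. The other 4 clusters with an interval below 1 were the sclerotome and somite-like (0.638), splanchnic mesoderm-like (0.663), endothelial-like (0.706) and neural tube progenitor-like (0.713) clusters. In the cardiomyocyte-like cluster Jun was at 80.1 and 74.2 CPM, a ratio of 0.926 (0.679 to 1.27). The lower Jun level thus lay in most clusters rather than in a few.

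Jund, the AP-1 subunit that is present without a stimulus in many cells, was higher in the Usb1-null library in 12 of 16 clusters, with an interval above 1 in 1 of them, cluster 11 (17.9 to 34.8 CPM, a ratio of 1.95, 1.13 to 3.51). It led in the cardiomyocyte-like cluster of the wild-type (73.4 CPM) and in the yolk sac and hepatic endoderm-like cluster of the Usb1-null library (86.4). Junb, which can oppose c-Jun, was highest in cluster 10 of the wild-type (19.4 CPM, from 14 UMIs) and in the primitive erythroid-like cluster of the Usb1-null library (21.9, from 8 UMIs), and in both libraries the endothelial-like cluster (12.6 and 14.9) was among its leading 3. None of its 6 clusters with at least 20 UMIs had an interval off 1.

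Atf3 was highest in the endothelial-like cluster of both libraries. It stood at 10.5 CPM (15 UMIs) against 2.86 in the remaining wild-type cells, a ratio of 3.69 (1.94 to 6.59), and at 14.0 (33 UMIs) against 2.06 in the Usb1-null cells, a ratio of 6.81 (4.33 to 10.5). In the wild-type library it did not differ from the next cluster beyond counting error. The Usb1-null over wild-type ratio in these cells was 1.33 (0.705 to 2.64), and without them the library ratio of Atf3 was 0.722 (0.498 to 1.05). All 10 endothelial markers were higher in the cluster than elsewhere, and the 11 cardiomyocyte markers were summed at 219.0 and 129.8 CPM there, below the 906.4 and 666.6 of the remaining cells. Of the other marker lists, 3 were higher there in both libraries: neural crest (443.5 against 194.5 CPM in the wild-type and 399.2 against 176.2 in the Usb1-null library), white blood cell and megakaryocyte (60.4 against 28.7 and 68.9 against 35.4) and trophoblast (57.5 against 21.3 and 37.5 against 19.3). Their part in the Atf3 level was not tested. Of all genes, 4.60% were highest in the endothelial-like cluster of both libraries.

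Ier2 was highest in cluster 10 in both libraries, at 73.6 CPM (53 UMIs) against 32.8 elsewhere in the wild-type and at 64.0 (51 UMIs) against 32.7 in the Usb1-null library, ratios of 2.25 (1.66 to 2.97) and 1.96 (1.45 to 2.59). Dusp1 and Zfp36 also led there in the wild-type library, at 20.8 (15 UMIs) and 4.17 (3 UMIs). Cluster 10 had the shallowest cells of the 18 clusters compared, with a median of 716 and 1121 UMIs. It raised 5 of 8 neural tube progenitor markers, none of them among its leading genes, and was left unnamed. Of all genes 8.72% were highest in it in both libraries, as were 6 of 10 heat shock genes and 5 of 10 reference genes (widely used control genes), and their part in the Ier2 level was not tested. Ier2 did not differ between the genotypes beyond counting error in any of its 15 clusters, whose ratios ran from 0.731 to 1.86.

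Dusp1 was higher in the Usb1-null library in 8 of the 10 clusters with at least 20 UMIs, each of these by at least 25%, and 4 had an interval above 1. In the neural tube progenitor-like cluster it went from 5.51 CPM (13 UMIs) to 14.2 (56 UMIs), a ratio of 2.57 (1.39 to 5.13). In the endothelial-like cluster it went from 11.9 (17 UMIs) to 28.5 (67 UMIs), a ratio of 2.39 (1.39 to 4.34). Cluster 6 (2.31, 1.07 to 5.53) and the forebrain and midbrain-like cluster (2.06, 1.18 to 3.78) were the other two. The exceptions were the cardiomyocyte-like cluster, with 16.9 CPM (15 UMIs) in the wild-type and 9.19 (13 UMIs) in the Usb1-null library, a ratio of 0.543 (0.238 to 1.22), and cluster 10, with 0.783 (0.343 to 1.77), and both intervals included 1. The cells with the highest Fos level were thus not those in which Dusp1 was higher in the Usb1-null library. Egr1 and Zfp36 had at least 20 UMIs in no cluster. Egr1 had 8 of its 58 Usb1-null UMIs in the 182 primitive erythroid-like cells (21.9 CPM), against 1 UMI in the 588 wild-type cells of that cluster (1.46 CPM). The endothelial-like cluster held 11 of the 58 (4.68 CPM), against 1 in the wild-type library (0.702 CPM).

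Over all genes and clusters, the 10 genes gave 68 pairs with at least 20 UMIs. Of these, 19 (27.9%) were higher by at least 25% in the Usb1-null library, where 20.7% of the pairs of all genes were, and 16 (23.5%) were at most 0.8, where 23.4% were. Jun gave 8 of the 16 lower pairs and Dusp1 8 of the 19 higher ones. The summed level of the 10 genes ran from 62.2 CPM (10 UMIs) in the intermediate mesoderm-like cluster to 273.2 in the cardiomyocyte-like cluster of the wild-type library, and from 89.5 in the neuron-like to 277.9 in the cardiomyocyte-like cluster of the Usb1-null library. In 16 of 18 clusters its ratio between the libraries had an interval that included 1. The exceptions were the primitive erythroid-like cluster, at 115.0 and 197.1 CPM (1.71, 1.23 to 2.39, from 79 and 72 UMIs), and the intermediate mesoderm-like cluster (2.24, 1.12 to 4.96, from 10 and 48 UMIs). The genes whose level over the 18 clusters was most like the summed level were the guanylate cyclase gene Gucy1a1 (Pearson r of 0.79 and 0.78 on the log2 scale), the respiratory chain gene Cox5b (0.76 and 0.77) and the cardiac troponin gene Tnnc1 (0.72 and 0.76), among 12563 genes, and clusters of a library share depth and cells of like origin.

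**Figure D3:**
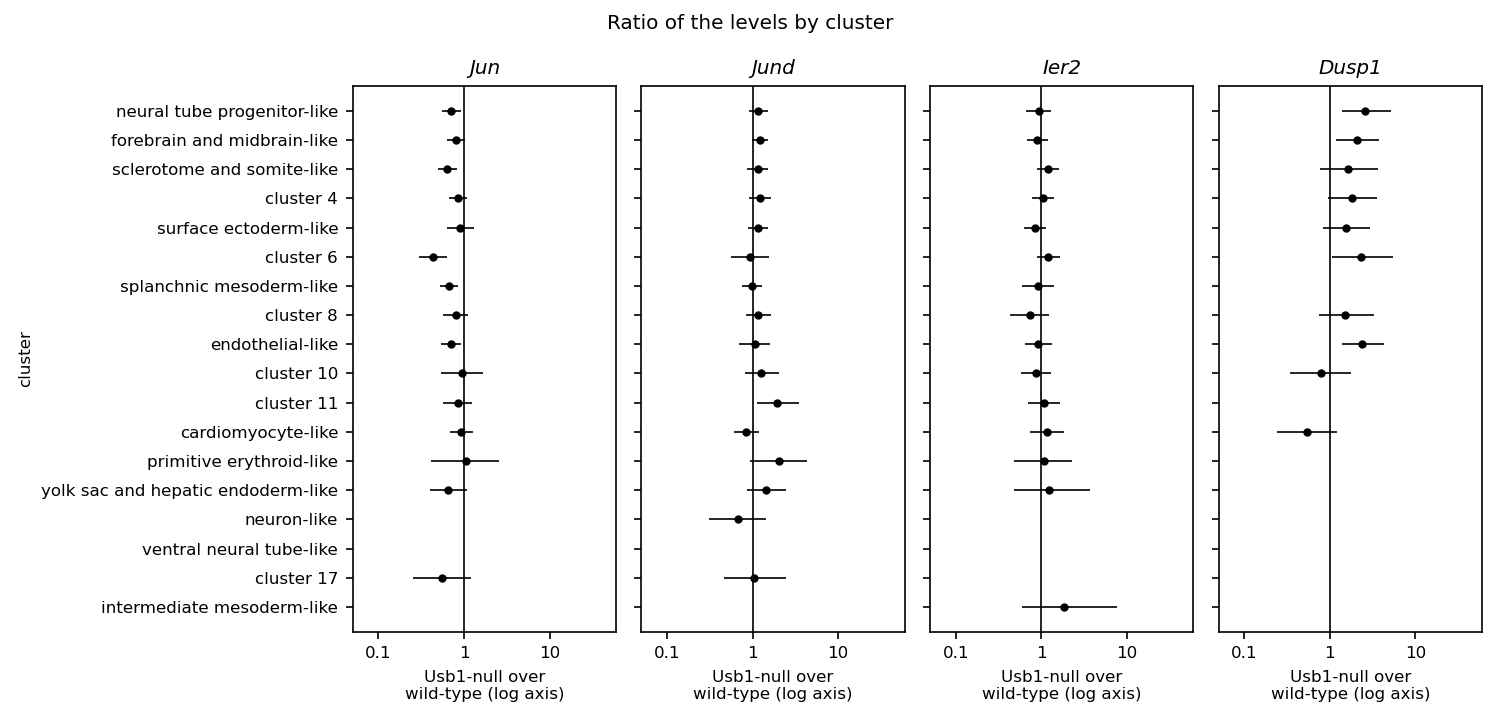
Usb1-null over wild-type ratio (log axis, line at 1) of Jun, Jund, Ier2 and Dusp1 in each cluster with at least 20 UMIs of the gene over both libraries, with 95% intervals for counting error. Jun lies below 1 in 14 of 15 clusters, Dusp1 above 1 in 8 of 10 and Jund above 1 in 12 of 16, while the Ier2 ratios run from 0.731 to 1.86 (the latter from 4 and 16 UMIs).

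Related gene lists were then compared. Of 46 other early response genes with at least 20 UMIs, 22 were at least 25% higher in the Usb1-null library and 7 had a ratio of at most 0.8, with a median log2 ratio of 0.20 (47.8% and 15.2% of the list, against 21.1% and 17.5% of all genes tested). The highest was that of Cebpb, a transcription factor of acute responses, at 0.920 and 3.24 CPM (20 and 108 UMIs; 3.52, 2.17 to 5.98). The lowest was Gadd45g, a growth arrest gene, at 33.9 and 19.9 CPM (0.587, 0.528 to 0.653), and the most abundant was Zfp36l1, a relative of Zfp36, at 230.1 and 263.3 (1.14). Of this list, 9 genes were highest in the endothelial-like cluster of both libraries, among 44 with at least 20 UMIs in each, and included Klf2 (37.2 and 28.1 CPM in that cluster), Fosl2 (9.82 and 14.0) and Ier3 (9.82 and 9.36), and 4.60% of all genes led there. In the cardiomyocyte-like cluster 2 of the 44 led in both, the secreted matrix protein gene Ccn1 (99.3 and 63.6) and Gadd45b (14.7 and 9.90), a share near the 3.77% of all genes. These names were chosen after their values were seen.

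The 19 genes of the ERK and SRF pathway, which carries growth factor signals to the promoters of Fos and Egr1, held 0 genes that were at least 25% higher and 2 with a ratio of at most 0.8, with a median log2 ratio of 0.03. The shares of all genes, for this list and the next ones, were 21.1% higher and 17.5% lower. The extremes were Map2k1 (144.2 and 175.3 CPM; 1.22) and Mapk3 (25.8 and 16.7; 0.649), and Braf was the most abundant (302.6 and 314.2; 1.04). Of 12 AP-1 partners, 3 were higher and 1 lower, from Maf at 1.45 (1.23 to 1.72) to Ddit3 at 0.661 (0.565 to 0.774), and Atf2, the most abundant, was at 1.12. Of 12 heat shock genes, some of which dissociation and heat also induce, 1 was higher and 5 lower, with a median of -0.27. On the log2 (CPM + 1) scale Hsph1 had the highest difference (111.2 and 127.1 CPM; ratio 1.14, 1.09 to 1.20) and Hspb1 the lowest (10.4 and 3.32 CPM; 0.321, 0.253 to 0.405), and Hsp90ab1, the most abundant, was at 0.676. The gene counted as higher was Hspa1b, with 11 and 24 UMIs (ratio 1.42), named after its value was seen; its reads cannot be safely told from those of its near-identical copy Hspa1a. The median of the heat shock list thus lay on the side of Jun. Yet 5 of its 12 genes had a ratio above 1: Hspa1a (1.04), Hspa1b, Dnajb1 (1.05), Hsph1 and Bag3 (1.09). Of 10 reference genes 3 were higher and 2 lower (Hprt 1.32, Gapdh 0.603, Ppia 0.894), with a median of -0.12.

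The last question was whether the genes were switched on together in the same cells. At 800 UMIs per cell most cells held none of them: 11079 of 12472 wild-type cells (88.8%) and 11272 of 12714 Usb1-null cells (88.7%). A UMI of 1 gene was found in 1327 and 1354 cells and of 2 genes in 64 and 86 cells. In the wild-type library 2 cells held at least 3 of the 10 (0.0160%, 0.00194 to 0.0579), and so did 2 in the Usb1-null library (0.0157%, 0.00191 to 0.0568), where 1.51 and 1.84 cells would hold 3 or more if the genes were independent of each other within each cluster. A group of cells with a broad immediate early response was therefore not detectable at this depth in either library.

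Summed over the 45 pairs of genes at 800 UMIs, the cells that held both genes of a pair came to 73 in the wild-type and 92 in the Usb1-null library (a cell with 3 or more of the genes enters several pairs), against 67.4 and 74.6 expected within clusters, ratios of 1.08 (0.850 to 1.36) and 1.23 (0.994 to 1.51). The same ratio for the 45 pairs of reference genes was 1.02 and 1.04. The median over pairs was 0 in both libraries, since 25 and 23 pairs were never found in the same cell. For Fos and Fosb, 1 wild-type cell held both where 0.121 was expected, and 3 Usb1-null cells where 0.291 was expected, a ratio of 10.3 (2.13 to 30.2) that rests on those 3 cells. Of these cells 0 wild-type and 1 Usb1-null cell lay in the cardiomyocyte-like cluster.

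With all UMIs of each cell, 30 wild-type cells (0.198%) and 94 Usb1-null cells (0.722%) held at least 3 of the genes, against 10.7 and 51.9 expected within clusters. These cells were deeper, with a median of 2660 and 4167 UMIs, against 1191 and 2150 in cells with none of the genes, and 43.3% and 18.1% of them were called doublets, against 5.13% and 3.12%. Where the expectation was formed within clusters and 5 classes of depth per cell it was 16.2 and 72.1 cells. Without called doublets 17 and 77 cells were left, against 11.4 and 56.8 expected. Over all pairs, the observed over expected ratio within clusters and depth classes was 1.15 (1.03 to 1.28) in the wild-type and 1.15 (1.08 to 1.22) in the Usb1-null library, and for reference genes 1.03 and 1.03. Without doublets it was 1.09 (0.965 to 1.23) and 1.17 (1.09 to 1.248). Pairs share cells, so these intervals are narrower than the true error. Fos and Fosb were found together in 3 wild-type cells, where 0.734 was expected (4.09, 0.843 to 11.9), and in 13 Usb1-null cells, where 6.19 was expected (2.099, 1.12 to 3.59). Within clusters alone, 6 wild-type and 8 Usb1-null pairs of the 45 had an interval above 1. Of the 45 pairs of reference genes, which had more counts, 29 and 33 did, so these calls do not set the immediate early genes apart. The pair Jun and Dusp1 was picked from the 45 immediate early pairs because its interval lay above 1 in both libraries. It was found together in 24 wild-type cells (observed over expected 1.99, 1.28 to 2.97) and in 50 Usb1-null cells (1.36, 1.01 to 1.80). With depth classes as well, the Jun and Dusp1 ratio was 1.74 (1.12 to 2.59) and 1.18 (0.878 to 1.56), and no pair then had an interval above 1 in both libraries.

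**Figure D4:**
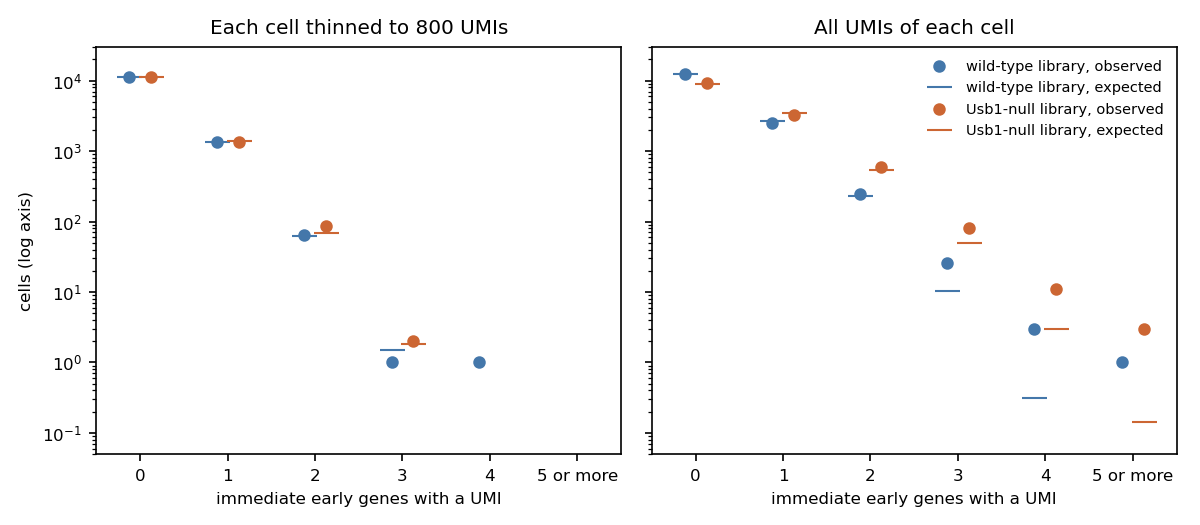
Number of cells (log axis) by how many of the 10 genes had a UMI, after thinning to 800 UMIs per cell (left) and with all UMIs (right), for the wild-type and the Usb1-null library. Points are observed cells and short lines the number expected if the genes were independent within clusters. A class with no cells has no point, and expected numbers under 0.05 are not drawn. Observed and expected lie close together up to 2 genes, and at 3 or more the thinned counts are 2 and 2 cells against 30 and 94 with all UMIs.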

How the data were processed

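Embryos were dissociated and profiled with 10x 3′ v3.1 chemistry. For each library the authors deposited raw UMI counts by gene and barcode, not normalized. The file headers name Cell Ranger 6.1.2, while the submitters' processing notes list Cell Ranger 2.1.1 and the build mm10. The wild-type matrix holds more barcodes than the study states after quality control, and the Usb1-null matrix as many.

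The members and gene lists were chosen with earlier results of these data known. Counts were summed per library and cluster and divided by the total (CPM). Ratios carry exact conditional binomial 95% intervals, levels exact Poisson and shares Clopper-Pearson intervals, all for counting error only (UMIs of PCR-amplified libraries). Genes were compared at 20 UMIs or more over both libraries, with a pseudocount of 1 CPM on log2 values. Clusters came from Scanpy 1.11.5 (2000 variable genes without the members, other early response, heat shock, mitochondrial, ribosomal protein and sex-linked genes, 30 components, Harmony by library, 15 neighbours, Leiden), at the resolution that gave nearest to 19 clusters. A cluster was named from fixed markers, with at least 3 raised 2-fold, by a rule settled after the clusters were seen. Doublets (Scrublet, 6.15% and 4.37% of cells) were kept and removed as an alternative. Co-detection was set against independence within clusters. Functions were tested on simulated counts. Gene models are GENCODE M21 (99.6% of identifiers matched), promoters RefSeq. Named non-members were the highest, lowest and most abundant gene of each list, the 3 with the most like cluster profile, and checks of the libraries. Others were 5 early response genes leading in a cluster, the heat shock genes above 1 and the cardiomyocyte markers, all chosen after their values were seen. A further rule, for genes raised in cells with 3 or more members, rested on 2 cells a library, so its genes are not named. Alternatives covered cell filters, doublets, composition, scaling, depth and clustering.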

Additional observations from a re-analysis of the deposited data

How the results depend on the processing

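No paired analysis was possible because each genotype has 1 library, and for the same reason no replicate could be left out. Over 8 other settings the ratio stayed between 1.40 and 1.83 for Fos, 1.53 and 1.84 for Fosb, 0.716 and 0.780 for Jun, and 1.59 and 1.77 for Dusp1. The ratios of Atf3 (0.787 to 1.17), Ier2 (0.968 to 1.12) and Junb (0.981 to 1.20) crossed 1 and had no stable direction. With a minimum of 1000 genes per cell, the Ier2 ratio was 1.12 and 2 genes (Jun and Atf3) were at most 0.8. At a fold of 1.5, 0 genes were lower. With at least 50 UMIs, 9 pairs of gene and cluster were higher and 8 lower, as fewer pairs were tested. The share of cells with 3 or more genes followed depth: 0% in both libraries at 500 UMIs, 0.150% (wild-type) and 0.142% (Usb1-null) at 1500, and 0.198% and 0.722% with no thinning. The median pair co-detection was 1.24 and 1.30 with no thinning, and 1.01 in the Usb1-null library at 1500 UMIs. The pooled ratio ran from 0.907 (at 500 UMIs) to 1.35 in the wild-type and from 1.09 to 1.31 in the Usb1-null library. At 1500 UMIs it was 1.21 and 1.09, so the order of the libraries was not stable. Chosen after seeing the data, the pooled co-detection, the expectation within depth classes, and the leading clusters under other clusterings were added. Fos in the cardiomyocyte-like cluster stayed 15.1 to 18.3 (wild-type) and 11.4 to 13.6 (Usb1-null) times the rest. Without doublets the cells with 3 or more genes fell from 30 to 17 in the wild-type library. With a pseudocount of 0.1 CPM the median log2 ratio of the 10 genes was 0.34, and with 5 CPM it was 0.12. The sparse genes Egr1 and Zfp36 limit any statement by cluster.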

Other observations

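Within the cardiomyocyte-like cluster, thinned to 800 UMIs, 13 wild-type and 21 Usb1-null cells held a UMI of Fos or Fosb, and their other transcripts were set beside those of the remaining 430 and 414 cells. The atrial hormone gene Nppa had 29 UMIs in the 13 wild-type cells, 4.59 times (2.9995 to 6.79) the level of the others, but 2 UMIs in the 21 Usb1-null cells, 0.744 times (0.0878 to 2.82). The atrial light chain gene Myl4 went the other way, at 0.662 times (0.213 to 1.56) in the wild-type and 2.62 times (1.58 to 4.15) in the Usb1-null library. The sarcomere genes Myh7 and Tnnt2 were at 1.76 (1.12 to 2.62) and 2.03 times (1.12 to 3.41) in the wild-type but at 0.905 (0.408 to 1.75) and 1.02 times (0.432 to 2.06) in the Usb1-null library, and Ttn was at 0.889 and 0.947 times. The intervals of the other 6 of the 11 cardiomyocyte markers included 1 in both libraries. None of the 11 thus had an interval above 1 in both libraries. UMIs of a few cells are not independent, so these intervals are too narrow. The genes were chosen for mention after their values were seen.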
